A study of Mus musculus with 13 samples.

Results

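The 10 genes described here encode secreted or induced products of the inflammatory response: the CC chemokines Ccl2, Ccl7 and Ccl5, the CXC chemokines Cxcl1, Cxcl5 and Cxcl10, the cytokine Il6, the enzymes Ptgs2 and Irg1, and the receptor antagonist Il1rn. They were taken by gene symbol from a deposited count table of 24394 symbols, all 10 had a row there, and all 10 were among the 17004 genes that passed the filter on low counts. The study followed mouse embryonic fibroblasts (MEF) through direct programming towards induced thymic epithelial cells (iTEC) by Foxn1, the transcription factor that thymic epithelium depends on. Primary MEF carrying the iFoxn1/+ allele were prepared from E13.5 embryos, and a plasmid that drives Cre recombinase from the PGK promoter (pPGK-Cre-bpA) was delivered by nucleofection to switch the Foxn1 allele on. The 13 RNA-seq libraries fell into 6 groups: untreated MEF (2 libraries), Cre-treated cells at day 2 (2) and day 10 (3), day 12 cells sorted as Epcam-positive (2) or Epcam-negative (2), and thymic epithelial cells (fetal TEC) of E15.5 embryos (2).

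By the growth protocol the untreated MEF carried the same allele, they are labelled as untreated, and no library used here is labelled as nucleofected without Cre. A response to plasmid delivery and a response to Foxn1 therefore cannot be told apart in any comparison with MEF. Cells were passaged at most 5 times and flow-sorted before RNA extraction, and the genotype of the fetal TEC is not given in the labels. The labels do not tie replicates to embryos or cultures, so p-values measure the spread between these libraries, which may be technical. In bulk RNA, more cells expressing a gene and more of its RNA per cell cannot be told apart.

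Chemokines are small secreted proteins that draw leukocytes along a gradient through receptors on those cells, and fibroblasts make many of them when pattern recognition receptors, interleukin 1 or tumour necrosis factor switch on NF-kB. Foreign DNA or RNA in the cytosol is sensed through separate receptors that also switch on interferon regulatory factors and then type I interferon, which adds genes such as Cxcl10 and Ccl5 to the response. Il1rn acts in the other direction, since its product occupies the interleukin 1 receptor without signalling.

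Promoter sequence, credited to RefSeq (GRCm38.p6), is shown for 3 members whose day 2 values differ widely, so that the sites for the regulators named above can be read beside them. Each line gives the 250 bases before the gene's start, 5' to 3' on the gene's strand, with matches in capitals. The searched motifs were the NF-kB (kappa B) consensus, the interferon-stimulated response element (GAAA, any pair of bases, GAAA), the AP-1 site TGANTCA and the C/EBP site TTGCNNAA, each on both strands. Of 32851 windows of the same length from all listed starts, 7.25% held the kappa B consensus, 2.98% the interferon element, 6.75% the AP-1 site and 9.56% the C/EBP site.
Cxcl10: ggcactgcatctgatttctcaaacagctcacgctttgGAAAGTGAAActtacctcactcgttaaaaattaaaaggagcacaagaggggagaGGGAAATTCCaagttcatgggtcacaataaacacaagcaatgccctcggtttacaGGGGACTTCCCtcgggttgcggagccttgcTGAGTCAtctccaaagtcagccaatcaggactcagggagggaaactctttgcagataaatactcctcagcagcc
Cxcl1: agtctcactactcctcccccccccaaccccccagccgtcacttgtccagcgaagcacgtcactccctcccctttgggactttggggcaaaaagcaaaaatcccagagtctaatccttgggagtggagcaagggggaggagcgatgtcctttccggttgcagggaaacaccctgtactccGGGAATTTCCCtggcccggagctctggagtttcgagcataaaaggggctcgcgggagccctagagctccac
Il6: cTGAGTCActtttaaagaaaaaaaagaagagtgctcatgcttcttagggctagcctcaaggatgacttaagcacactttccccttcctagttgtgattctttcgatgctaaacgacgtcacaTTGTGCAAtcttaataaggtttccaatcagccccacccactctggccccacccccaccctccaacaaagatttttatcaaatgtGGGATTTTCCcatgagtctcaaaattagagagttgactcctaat
The first window (chr5:92348890-92349139, minus strand) held an interferon element that began 213 bases before the start, a kappa B match at 159, overlapping kappa B matches at 104 and 103, and an AP-1 site at 74. That of Cxcl1 (chr5:90890995-90891244, plus strand) held overlapping kappa B matches at 71 and 70. The Il6 window (chr5:30012864-30013113, plus strand) held an AP-1 site at 249, a C/EBP site at 128 and a kappa B match at 44. The windows of Ptgs2 and Irg1 held a C/EBP match in the first and none of the motifs in the second, and 1 of the 3 windows of Il1rn held an AP-1 match. Windows of Ccl2, Ccl7, Ccl5 and Cxcl5 were not used here.

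Libraries held 35805780 to 86465460 counts. Levels below are CPM, each library's counts scaled to a common total with TMM factors, and 3 counts, taken as the detection limit, amounted to 0.0300 to 0.0776 CPM. Foxn1 read 18.3 and 13 CPM in MEF, 292 to 468 CPM in all other cultured libraries, and 361.5 and 362 CPM in fetal TEC. Epcam, the sorting marker, was 4.8 and 30.6 CPM in the Epcam-positive libraries and 0.560 and 0.290 CPM in the Epcam-negative ones, against 312 and 574 CPM in fetal TEC. Day 10 libraries held 5.03, 5.05 and 5.53 CPM of Epcam, above Epcam-positive replicate 1. In Epcam-positive replicates 1 and 2, 9 epithelial markers summed to 2712 and 24754 CPM, and 11 fibroblast markers to 50371 and 7213 CPM. Libraries stood apart in length dependence, sex and macrophage markers. For length, each gene's log2(CPM + 1), less its mean over all libraries, was ranked against the gene's exon length. Levels relative to that mean ran against gene length in both fetal TEC libraries and in replicate 2 of the Epcam-positive cells. The rank correlations across genes were -0.337, -0.376 and -0.373, where the 10 other libraries lay between 0.222 and 0.324. The mean takes in every library, so these signs, here and below, are relative and do not describe a library by itself. Xist and Y-linked genes put MEF and the Epcam-negative cells on one side (Y-linked sum 0 to 0.0144 CPM) and the day 2, day 10 and Epcam-positive libraries on the other (65.6 to 302 CPM), so the sex of the cells moved with those comparisons. A list of 19 macrophage markers summed to 3838 and 4340 CPM in MEF, 30.3 and 32.2 CPM at day 2, 65.4 to 72.9 CPM at day 10, 338 and 329 CPM in Epcam-positive cells, 54.2 and 69.3 CPM in Epcam-negative cells, and 1074 and 1286 CPM in fetal TEC. The Epcam-positive sums differ in make-up: in replicate 1 none of the 19 markers was at 0, with C1qa at 25.4 CPM and Lyz2 at 76.1 CPM, whereas in replicate 2, where Fcgr3 made up 239.9 CPM and Cd14 64.7 CPM, 11 were at 0, among them Adgre1, C1qa, Tyrobp and Ptprc. Fcgr3 also made up 45.5 to 53.7 CPM of the day 10 sums.

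The members' summed level was 297 and 361 CPM in MEF, 2509 and 2373 CPM at day 2, and 187 to 196 CPM at day 10. At day 12 it was 144 and 305 CPM in Epcam-positive cells and 62.3 and 53.0 CPM in Epcam-negative cells, and in fetal TEC it was 1299 and 2275 CPM. The sum therefore stood far above MEF at day 2 and below both MEF libraries at day 10 and in the Epcam-negative cells. Few genes carry the sum, and it takes in the antagonist. In fetal TEC Cxcl10 alone read 1019 and 1992 CPM. From MEF to day 10 mean Il1rn went from 98.5 to 26.1 CPM, while mean Ptgs2 went from 101 to 143 CPM. Levels were also scaled to the joint length of a gene's annotated exons. That length takes in every isoform and need not be that of the transcript expressed (5535 bases for Il1rn, 801 for Ccl7). On this scale mean levels at day 2 ran from 280 CPM per kilobase for Ptgs2 and 268 for Cxcl10 down to 3.90 for Irg1. In MEF the order was headed by Ccl7 at 39.2 and Ccl2 at 29.4 CPM per kilobase, with Cxcl10 at 2.10 and Ccl5 at 0.611. By day 10 Ptgs2 led at 31.2 CPM per kilobase and no other member exceeded 4.87.

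**Figure D1:**
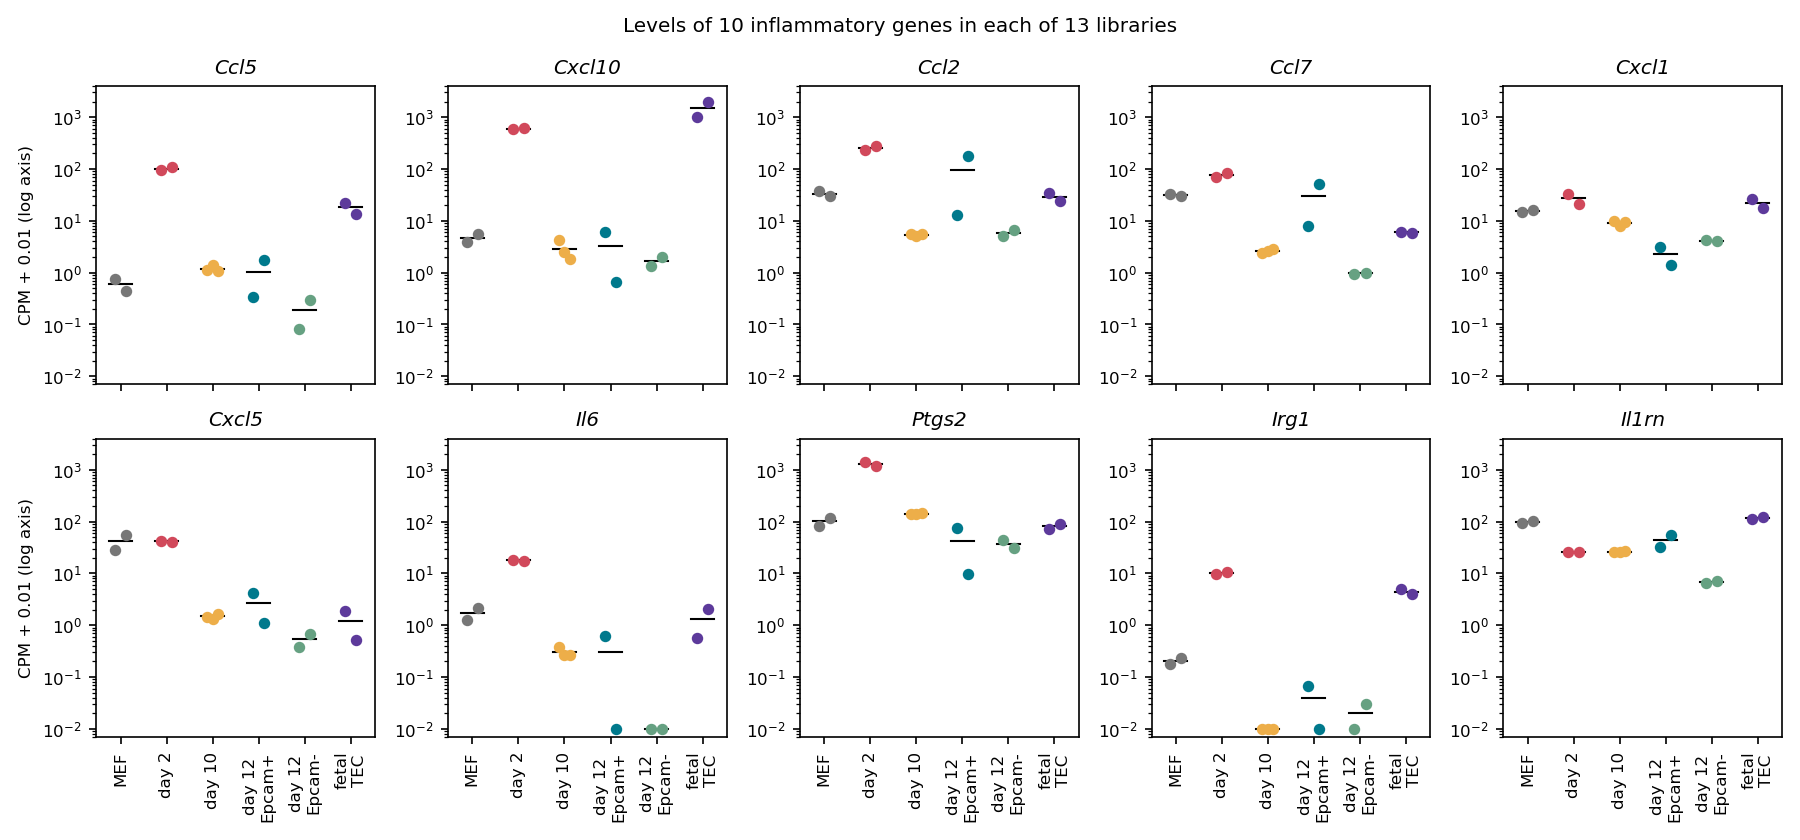
Level of each of the 10 genes in each library, as CPM + 0.01 on a log axis, with the 6 groups along the horizontal axis; points are libraries and bars are group means. All members but Cxcl5 and Il1rn had their highest mean among cultured groups at day 2, and Il1rn was highest in MEF and fetal TEC. The Epcam-positive pair was wide apart for Ccl2 and Ccl7, and for Cxcl10 and Ptgs2 among others.

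Cxcl10 attracts activated T cells through Cxcr3 and is an interferon-induced gene; it lies at chr5:92346638-92348889 (minus strand, mm10). It read 3.90 and 5.56 CPM in MEF, 584 and 622 CPM at day 2, 4.29, 2.46 and 1.86 CPM at day 10, 5.99 and 0.642 CPM in Epcam-positive cells, 1.32 and 1.99 CPM in Epcam-negative cells, and 1019 and 1992 CPM in fetal TEC. Day 2 and fetal TEC were high and did not overlap any other group, while MEF and the later cultured groups overlapped one another in part. The change at day 2 over MEF was 7.0 ± 1.02 on the log2 scale (estimate ± SE; edgeR quasi-likelihood test, adjusted p = 0.00405). Art3, on the opposite strand, overlaps the gene, and the sources used here do not say whether the counting used strand; Art3 itself averaged 0.405 CPM at day 2.

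Ccl5, which attracts T cells and monocytes, lies at chr11:83525778-83530518 (minus strand). Its levels were 0.732 and 0.441 CPM in MEF, 95.3 and 107 CPM at day 2, 1.11, 1.38 and 1.06 CPM at day 10, 0.334 and 1.75 CPM in Epcam-positive cells, 0.0718 and 0.290 CPM in Epcam-negative cells, and 22.6 and 13.8 CPM in fetal TEC. Here day 2 stood above fetal TEC, and both were above every other library. Its change at day 2 over MEF was 7.42 ± 0.95 (adjusted p = 0.00197), and among the members this was the one day 2 call that held without each of the 13 libraries in turn (adjusted p up to 0.0383).

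The monocyte chemokines Ccl2 and Ccl7, both ligands of Ccr2, lie next to each other on chromosome 11 (chr11:82035571-82037453 and chr11:82045712-82047525, both plus strand). Ccl2 read 37.1 and 29.9 CPM in MEF, 238 and 274 CPM at day 2, 5.56, 5.00 and 5.51 CPM at day 10, 13.1 and 181.8 CPM in Epcam-positive cells, 5.11 and 6.69 CPM in Epcam-negative cells, and 34.8 and 23.8 CPM in fetal TEC. For Ccl7 the values were 33.1 and 29.7 CPM in MEF, 69.4 and 82.2 CPM at day 2, 2.37, 2.61 and 2.82 CPM at day 10, 8.0 and 52.5 CPM in Epcam-positive cells, 0.919 and 0.991 CPM in Epcam-negative cells, and 6.10 and 5.94 CPM in fetal TEC. Both genes were high in MEF already, stood above MEF in both day 2 libraries, and were far below both at day 10. The day 2 difference from MEF was 2.93 ± 0.88 for Ccl2 (adjusted p = 0.0939) and 1.27 ± 0.64 for Ccl7 (adjusted p = 0.361), neither of which passed; without either Epcam-positive library, whose 2 values lie far apart, both were called. In the Epcam-positive group, replicate 2 was 181.8 CPM for Ccl2 against 13.1 CPM in replicate 1, and it is the library in which levels ran against gene length.

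The neutrophil chemokines Cxcl1 and Cxcl5 signal through Cxcr2 and lie in a chromosome 5 cluster (chr5:90891241-90893115 and chr5:90759360-90761624, plus strand). Cxcl1 read 15.1 and 15.98 CPM in MEF, 33.6 and 21.03 CPM at day 2, 9.94, 8.07 and 9.36 CPM at day 10, 3.14 and 1.41 CPM in Epcam-positive cells, 4.24 and 3.99 CPM in Epcam-negative cells, and 25.9 and 17.5 CPM in fetal TEC. Its day 2 difference from MEF, 0.81 ± 0.44, did not pass (adjusted p = 0.408). Cxcl5 read 28.8 and 55.2 CPM in MEF, 42.0 and 40.8 CPM at day 2, 1.46, 1.33 and 1.65 CPM at day 10, 4.16 and 1.08 CPM in Epcam-positive cells, 0.374 and 0.680 CPM in Epcam-negative cells, and 1.87 and 0.507 CPM in fetal TEC. At day 2 both Cxcl5 values lay between the 2 MEF values (-0.02 ± 0.71, adjusted p = 1), and all later libraries were below both groups.

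Il6, the cytokine that signals through Il6ra and gp130 and drives the acute phase response, lies at chr5:30013114-30019981 (plus strand). It read 1.26 and 2.17 CPM in MEF, 18.5 and 17.1 CPM at day 2, 0.372, 0.256 and 0.259 CPM at day 10, 0.598 and 0 CPM in Epcam-positive cells, and 0.567 and 2.03 CPM in fetal TEC. No Il6 count was seen in either Epcam-negative library, which allows up to 0.0431 and 0.0300 CPM. Day 2 stood above all other libraries, but the difference from MEF, 3.38 ± 1.33, did not pass (adjusted p = 0.220), and it passed when either Epcam-positive library was left out.

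Ptgs2, the inducible cyclooxygenase that starts prostaglandin synthesis, lies at chr1:150100031-150108227 (plus strand). It read 84.1 and 118 CPM in MEF, 1392 and 1172 CPM at day 2, 141, 140.3 and 147 CPM at day 10, 75.7 and 9.60 CPM in Epcam-positive cells, 43.7 and 31.2 CPM in Epcam-negative cells, and 72.0 and 89.6 CPM in fetal TEC. Levels at day 10 were above both MEF libraries, by a difference of 0.50 ± 0.63 that did not pass (adjusted p = 0.681). At day 2 the change over MEF was 3.66 ± 0.76 (adjusted p = 0.0227).

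Irg1 (named Acod1 in the annotation), the mitochondrial enzyme that makes itaconate in activated macrophages, lies at chr14:103046977-103056573 (plus strand). It read 0.166 and 0.221 CPM in MEF, 9.94 and 10.5 CPM at day 2, 0.0575 and 0 CPM in Epcam-positive cells, 0 and 0.0200 CPM in Epcam-negative cells, and 4.99 and 3.93 CPM in fetal TEC, and it had no count in any of the 3 day 10 libraries, which allows up to 0.0464, 0.0769 and 0.0776 CPM. The day 2 rise over MEF was 5.72 ± 1.16 (adjusted p = 0.0302). The day 2 libraries had macrophage sums of 30.3 and 32.2 CPM, with 7 of the 19 markers at 0 in both (Adgre1, C1qa, Itgam, Aif1, Tyrobp, Fcer1g and Ptprc), and at day 10, where Irg1 had no count, 8 were at 0; the part of other cell types in the Irg1 rise was not tested.

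Il1rn, the antagonist, lies at chr2:24336853-24351494 (plus strand) and ran the other way. It read 92.9 and 104 CPM in MEF, 26.3 and 26.0 CPM at day 2, 25.5, 25.4 and 27.4 CPM at day 10, 32.6 and 56.1 CPM in Epcam-positive cells, 6.48 and 7.14 CPM in Epcam-negative cells, and 111 and 125 CPM in fetal TEC. MEF and fetal TEC were high, day 2 and day 10 overlapped, and the Epcam-negative cells were lowest. The change at day 2 over MEF was -1.91 ± 0.30 (adjusted p = 0.00564). The macrophage marker sums given above were likewise highest in MEF and fetal TEC; their part in the Il1rn levels was not tested.

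Set against MEF, then, 4 members rose at day 2 (Ccl5, Cxcl10, Ptgs2 and Irg1), 1 fell (Il1rn) and 5 did not pass, where 5.52% of all genes tested were called in either direction, 2.87% higher and 2.65% lower. The median change of the 10 members was 3.15, beside 0 over all genes tested. An unadjusted p under 0.05 was reached by 6 members higher and 1 lower. The DESeq2 Wald test called the same numbers, with 2317 genes called in all, against 938 by edgeR. These calls are sensitive to single libraries: Cxcl10 lost its call without either MEF library (adjusted p up to 0.0547), Ptgs2 and Irg1 without any 1 of the MEF or day 2 libraries (up to 0.142 and 0.200), and Il1rn without either day 2 library (up to 0.0801). Leaving out the Epcam-positive replicate 2 and fetal TEC libraries, a choice made after seeing the data, gave 8 members higher and 1 lower. That fit called 6444 genes in all, against 938 with every library.

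**Figure D2:**
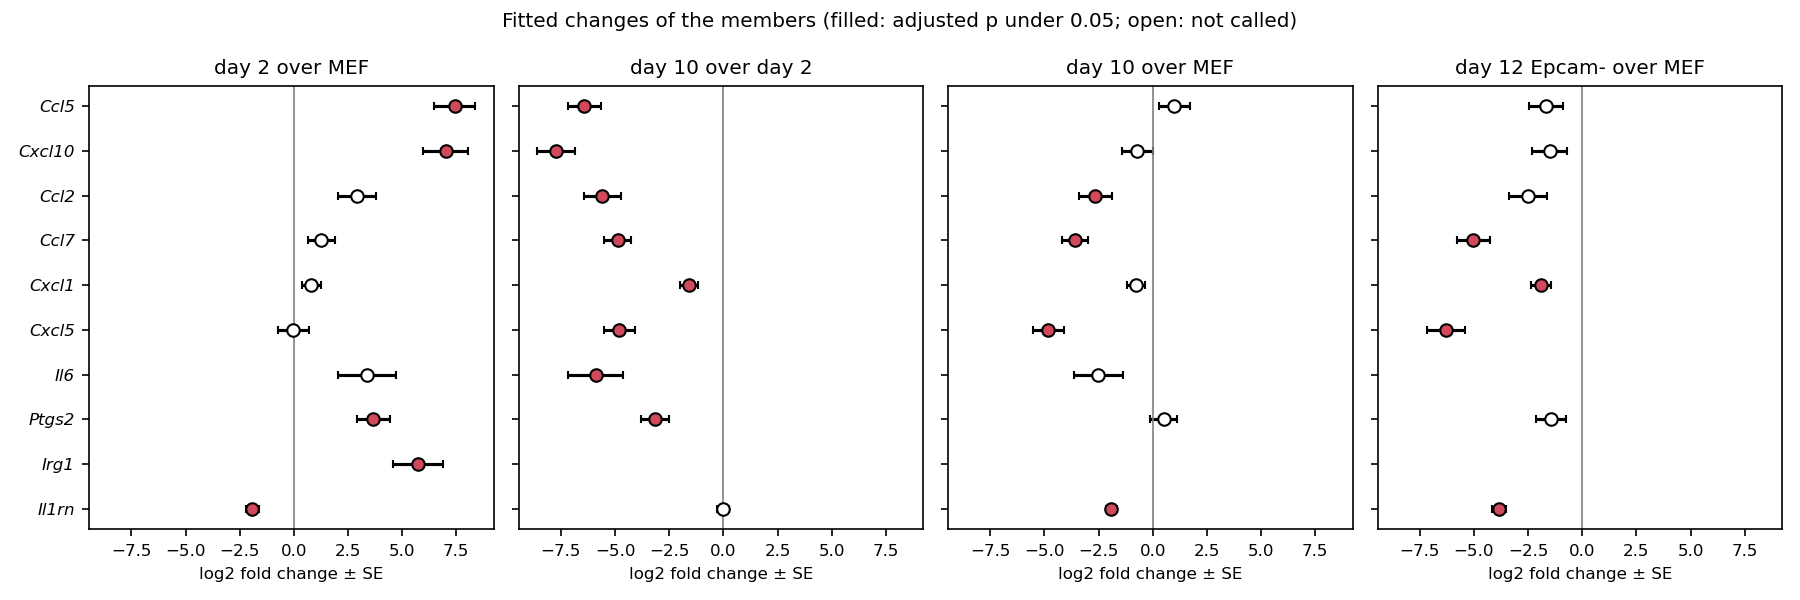
Change of each gene on the log2 scale with its standard error in 4 comparisons (day 2 over MEF, day 10 over day 2, day 10 over MEF, and day 12 Epcam-negative cells over MEF); filled points passed an adjusted p of 0.05. Irg1 is not drawn in the last 3 comparisons and Il6 in the last, because a group there had 0 to 3 counts. Of the members drawn at day 2, Ccl5 and Cxcl10 lie farthest to the right at 7.42 and 7.0.

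Day 10 set against day 2 asks how much of this response was left. In all, 9 of the 10 members were lower at day 10 than at day 2, where 4.41% of all genes tested were called lower, 8.24% higher and 12.6% in either direction. Cxcl10 changed by -7.71 ± 0.88 (adjusted p = 0.000614) and Ccl5 by -6.41 ± 0.76 (adjusted p = 0.000732). Ccl2 fell by 5.58 (SE 0.84, adjusted p = 0.00258), Ccl7 by 4.87 (SE 0.63, adjusted p = 0.00112) and Cxcl5 by 4.8 (SE 0.70, adjusted p = 0.00218). Irg1, with no count in any day 10 library, was at least 487-fold lower, taking 3 counts over the group as the floor. Ptgs2 (-3.17 ± 0.64, adjusted p = 0.0108), Il6 (-5.89 ± 1.27, adjusted p = 0.0176) and Cxcl1 (-1.58 ± 0.40, adjusted p = 0.0282) also fell, and the difference of Il1rn did not pass (0.00 ± 0.27, adjusted p = 1). The calls of Ccl5, Cxcl10, Ccl2, Ccl7, Cxcl5 and Irg1 held without each library in turn (adjusted p up to 0.0179). Ptgs2 lost its call without either day 2 library, Il6 without any day 2 or day 10 library and Cxcl1 without any day 2, day 10 or Epcam-negative library (up to 0.0702, 0.0903 and 0.279).

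With day 10 set against MEF, 5 members were lower (Ccl2, Ccl7, Cxcl5, Irg1 and Il1rn) and 0 higher, where 6.58% of all genes tested were called lower, 9.42% higher and 16.0% in either direction. By unadjusted p and by the DESeq2 Wald test, too, 0 members were higher and 5 lower, and the latter called 4311 genes in all. Without the 3 libraries in which levels ran against gene length, Ptgs2 was called higher and 7 members lower. That fit, a choice made after seeing the data, called 9238 genes in all. Cxcl5 changed by -4.82 ± 0.70 (adjusted p = 0.00179), Ccl7 by -3.59 ± 0.60 (adjusted p = 0.00380) and Il1rn by -1.92 ± 0.26 (adjusted p = 0.00127), and these 3 calls held without each library in turn. Irg1 was at least 8.93-fold lower (adjusted p = 0.0237), a call lost without either MEF library, day 2 replicate 2 or any day 10 library (up to 0.0941). Ccl2 (-2.65 ± 0.75, adjusted p = 0.0415) lost its call without any library other than the Epcam-positive pair (up to 0.133). The members that rose most at day 2, Ccl5 and Cxcl10, were 1.0 ± 0.70 and -0.71 ± 0.72 from MEF at day 10 (adjusted p = 0.393 and 0.583). The fall of Ccl2, Ccl7 and Cxcl5 below MEF went with macrophage marker sums of 65.4 to 72.9 CPM at day 10 against 3838 and 4340 CPM in MEF, and its part in the result was not tested. The comparisons with MEF share the MEF libraries, and those with day 2 share the day 2 libraries.

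At day 12 the Epcam-negative cells held the lowest levels of Ccl5, Cxcl10, Ccl7, Cxcl5, Il6, Ptgs2 and Il1rn among the group means. Against MEF, 5 of the 10 members were lower in them and 0 higher, where 4.53% of all genes tested were called lower, 7.37% higher and 11.9% in either direction. Unadjusted p gave 7 lower and 0 higher, as did the DESeq2 Wald test, which called 3770 genes in all. Il1rn changed by -3.85 ± 0.33 (adjusted p = 0.000127), Cxcl5 by -6.30 ± 0.89 (adjusted p = 0.00188), Ccl7 by -5.03 ± 0.75 (adjusted p = 0.00256) and Cxcl1 by -1.92 ± 0.46 (adjusted p = 0.0247). Il6, at 0 in both libraries, was at least 92.0-fold lower (adjusted p = 0.0196). The calls of Il1rn, Cxcl5 and Ccl7 held without each library in turn, while Cxcl1 and Il6 lost theirs without 6 and 3 of the libraries, each MEF or Epcam-negative library for Cxcl1 and MEF replicate 2 or either Epcam-negative library for Il6 among them (adjusted p up to 0.167 and 0.125). Against day 2 all 10 members were lower, where 3.65% of all genes tested were called lower, 6.61% higher and 10.3% in either direction. Il6 was at least 999-fold lower there, and Irg1, with 2 counts over the group, stood at 0.00115 of its day 2 level (95% counting interval 0.000139 to 0.00416). The calls of Ccl5, Cxcl10, Ccl7 and Cxcl5 held without each library in turn, and each of the other 6 was lost without at least 1 Epcam-negative library; that of Cxcl1 was also lost without day 2 replicate 1.

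In Epcam-positive cells at day 12, 3 of the 10 members were lower than in MEF and 0 higher, where 4.40% of all genes tested were called lower and 20.3% in either direction. Unadjusted p gave 3 lower and the DESeq2 Wald test 4, neither with any higher. The DESeq2 Wald test called 6289 genes in all. Cxcl1 changed by -2.77 ± 0.47 (adjusted p = 0.00481), Cxcl5 by -3.99 ± 0.80 (adjusted p = 0.0107) and Il1rn by -1.15 ± 0.30 (adjusted p = 0.0258). The call of Cxcl1 held without each library in turn; that of Cxcl5 was lost without MEF replicate 2 (adjusted p = 0.0736) and that of Il1rn without any MEF, day 10 or Epcam-negative library (up to 0.139). Ccl2 and Ccl7 averaged 97.4 ± 119 and 30.3 ± 31.5 CPM in Epcam-positive cells, against 33.5 ± 5.06 and 31.4 ± 2.40 CPM in MEF (SD, n = 2 each). The Epcam-positive spread was thus larger than the difference from MEF, and neither gene passed (adjusted p = 0.200 and 0.997). Each single Epcam-positive library gave a call in a different direction: Ccl2 was 2.44 and Ccl7 0.74 over MEF without replicate 1, and -1.36 and -1.97 without replicate 2. Against day 2, 7 of the 10 members were lower, where 4.16% of all genes tested were called lower, 14.1% higher and 18.3% in either direction. Ccl2, Ccl7 and Il1rn did not pass, though Ccl2 and Ccl7 did without Epcam-positive replicate 2 and Il1rn, higher, without replicate 1. Of the 7, Cxcl5 lost its call without either day 2 library (adjusted p up to 0.0638), Il6 without any day 2 or day 10 library (up to 0.140) and Irg1 without day 2 replicate 1 (0.0502).

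Between the day 12 groups 2 members differed: Ccl7 (4.98 ± 0.75, adjusted p = 0.0453) and Il1rn (2.70 ± 0.31, adjusted p = 0.0200) were higher in Epcam-positive than in Epcam-negative cells, where 0.241% of all genes tested were called higher and 0.259% in either direction. None was lower by this test, by unadjusted p or by the DESeq2 Wald test, which put 6 members higher and called 1763 genes in all. The 2 Epcam-positive libraries did not place all members alike. Ptgs2 read 75.7 and 9.60 CPM in them, and its change was 0.19 with every library and -1.96 without replicate 1. Cxcl1 was at -0.85 with every library and ranged from -1.54 to -0.39 without each library in turn. Il1rn was 32.6 and 56.1 CPM in Epcam-positive cells against 6.48 and 7.14 CPM in Epcam-negative cells. Both calls rest on few libraries, since Ccl7 lost its call without any library other than the Epcam-positive pair (adjusted p up to 0.548) and Il1rn without any day 2, day 10 or Epcam-negative library (up to 0.323). The 19 macrophage markers summed to 338 and 329 CPM in Epcam-positive cells, with 0 and 11 of them at 0, against 54.2 and 69.3 CPM in Epcam-negative cells, with 7 at 0 in both libraries; the part of these in the result was not tested. By Xist and Y-linked genes the Epcam-positive and Epcam-negative libraries also differed in sex, so the sort and the source of the cells cannot be told apart.

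Fetal TEC gave a level for these genes in the tissue that the programming aims at, from a different tissue source. At day 10, 6 members were lower than in fetal TEC and 0 higher, where 31.7% of all genes tested were called lower, 27.6% higher and 59.3% in either direction. Unadjusted p and the DESeq2 Wald test also gave 6 lower and 0 higher, and the latter called 10736 genes in all. Cxcl10 averaged 2.87 ± 1.26 CPM at day 10 (SD, n = 3) and 1506 ± 688 CPM in fetal TEC (n = 2), a change of -9.03 ± 0.93 (adjusted p = 0.000111). Ccl5 (-3.94 ± 0.69, adjusted p = 0.00162), Il1rn (-2.18 ± 0.27, adjusted p = 0.000257) and Irg1 (at least 215-fold lower) were lower as well, and these 4 calls held without each library in turn. Ccl2 (-2.45 ± 0.75, adjusted p = 0.0192) and Cxcl1 (-1.25 ± 0.40, adjusted p = 0.0221) lost theirs without any day 10 library or fetal TEC replicate 1 (up to 0.0833 and 0.112). Fetal TEC libraries held 1074 and 1286 CPM of macrophage markers and 159 and 151 CPM of neutrophil markers, against 65.4 to 72.9 CPM and at most 0.0929 CPM at day 10. T lineage markers summed to 1295 and 621 CPM in fetal TEC. At day 10 they summed to 61.7 to 69.7 CPM, of which Thy1 made up 61.1 to 69.0 CPM. Endothelial markers summed to 118 and 61.7 CPM in fetal TEC and 26.9 to 33.7 CPM at day 10. Levels in fetal TEC also ran against gene length, and the part of all these in the differences was not tested.

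The rest of the pathway was read from lists of related genes. At day 2 over MEF, 2.87% of all genes tested were called higher and 2.65% lower. At day 10 over day 2, 4.41% were called lower. Of 20 interferon-induced genes, 16 rose at day 2 over MEF and none fell, and all 20 were lower at day 10 than at day 2. Of 20 nucleic acid sensors and adaptors, 6 rose at day 2, among them Irf7, Dhx58 (a RIG-I family RNA binding protein), Trex1 (a cytosolic DNase) and Tmem173 (the adaptor STING), and 1 fell. Trex1 averaged 41.6 ± 2.71 CPM at day 2 and 7.25 ± 0.982 CPM in MEF (2.52 ± 0.40, adjusted p = 0.00618), and Tmem173 averaged 77.6 ± 6.67 CPM at day 2 and 29.5 ± 8.57 CPM in MEF (1.40 ± 0.29, adjusted p = 0.0227). Of 21 NF-kB subunits and target genes, 5 rose, among them Irf1, Tnfaip2, Zc3h12a and Nfkbiz, and none fell, and 8 were lower at day 10 than at day 2. Without the 3 libraries in which levels ran against gene length, the day 2 counts were 20, 10 and 15 higher. That fit called 6444 of all genes, against 938 with every library. Without each library in turn the 3 counts were 12 to 20, 2 to 9 and 1 to 13 higher, where 304 to 3859 genes were called in all. Irf1, a transcription factor of both the interferon and the NF-kB pathways, averaged 130 ± 5.98 CPM at day 2 and 13.9 ± 2.01 CPM in MEF, a change of 3.23 ± 0.27 (adjusted p = 0.000228). Rsad2 (viperin, an antiviral enzyme) averaged 927 ± 61.9 CPM at day 2 and 5.80 ± 2.55 CPM in MEF (7.32 ± 0.56, adjusted p = 0.000146).

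Other inflammatory ligands and the receptors were read in the same way, beside the same shares over all genes at day 2 (2.87% higher and 2.65% lower). Of 22 other chemokines tested, Cxcl11 rose, with 11.6 ± 0.743 CPM at day 2 and 0.0308 ± 0.0151 CPM in MEF (8.41 ± 1.27, adjusted p = 0.00456), and 3 fell (Ccl6, Cxcl15 and Pf4). Of 16 other inflammatory cytokines none passed in either direction by edgeR, and 5 were higher and 1 lower by unadjusted p. The DESeq2 Wald test called 3 and 1, with 2317 genes called in all. Without the 3 libraries in which levels ran against gene length, 5 other chemokines were higher and 10 lower, and 8 cytokines were higher and 2 lower. That fit called 6444 genes in all. Without each library in turn, 0 to 2 chemokines were higher and 0 to 9 lower, and 0 to 4 cytokines were higher and 0 to 1 lower. Those fits called 304 to 3859 genes in all. Il33, an alarmin of the interleukin 1 family, averaged 368 ± 48.5 CPM at day 2 and 30.1 ± 22.05 CPM in MEF (3.61 ± 0.96, adjusted p = 0.0616). Among 18 receptors of the members, 1 was called lower at day 2 and 0 higher. Il6st, the gp130 chain through which Il6 signals, fell to 239.8 CPM at day 2, against 1224 CPM in MEF (-2.35 ± 0.58, adjusted p = 0.0475). Of 8 genes of IL6 and IL1 feedback, 1 rose (Socs3) and 1 fell (Irak3). Socs3, the feedback inhibitor of that receptor, rose to 118 ± 1.46 CPM at day 2, against 25.9 ± 12.3 CPM in MEF (2.19 ± 0.47, adjusted p = 0.0267). At day 10 Socs3 averaged 225 ± 11.1 CPM (3.12 ± 0.47 over MEF, adjusted p = 0.00222), and it was called higher than MEF in both day 12 groups as well. Of 10 prostaglandin enzymes, 1 rose at day 2 over MEF and 2 fell. Ptgs1, the constitutive cyclooxygenase, rose (1.96 ± 0.48, adjusted p = 0.0459). Ptgs1 was still above MEF at day 10, at 40.1 ± 1.16 CPM (2.06 ± 0.46, adjusted p = 0.0150). Hpgds, a prostaglandin D synthase, averaged 0.0792 CPM at day 2 and 54.5 CPM in MEF (-9.36 ± 1.76, adjusted p = 0.0144). Hpgd, which inactivates prostaglandins, averaged 0.240 CPM at day 2 and 32.3 CPM in MEF (-7.02 ± 1.11, adjusted p = 0.00577), and it averaged 211 CPM at day 10 (9.73 ± 1.22 over day 2, adjusted p = 0.000950). The day 2 calls over MEF of Il6st, Socs3, Ptgs1, Hpgds and Hpgd were each lost when some single library was left out. So were the day 10 call of Ptgs1 over MEF and the Epcam-positive call of Socs3 over MEF. Of the 19 macrophage markers, 10 fell at day 2 over MEF, 19 without the length-skewed libraries and 3 to 19 without each library in turn, and Ccl6 and Pf4 are themselves expressed by macrophages; their part in those falls was not tested.

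**Figure D3:**
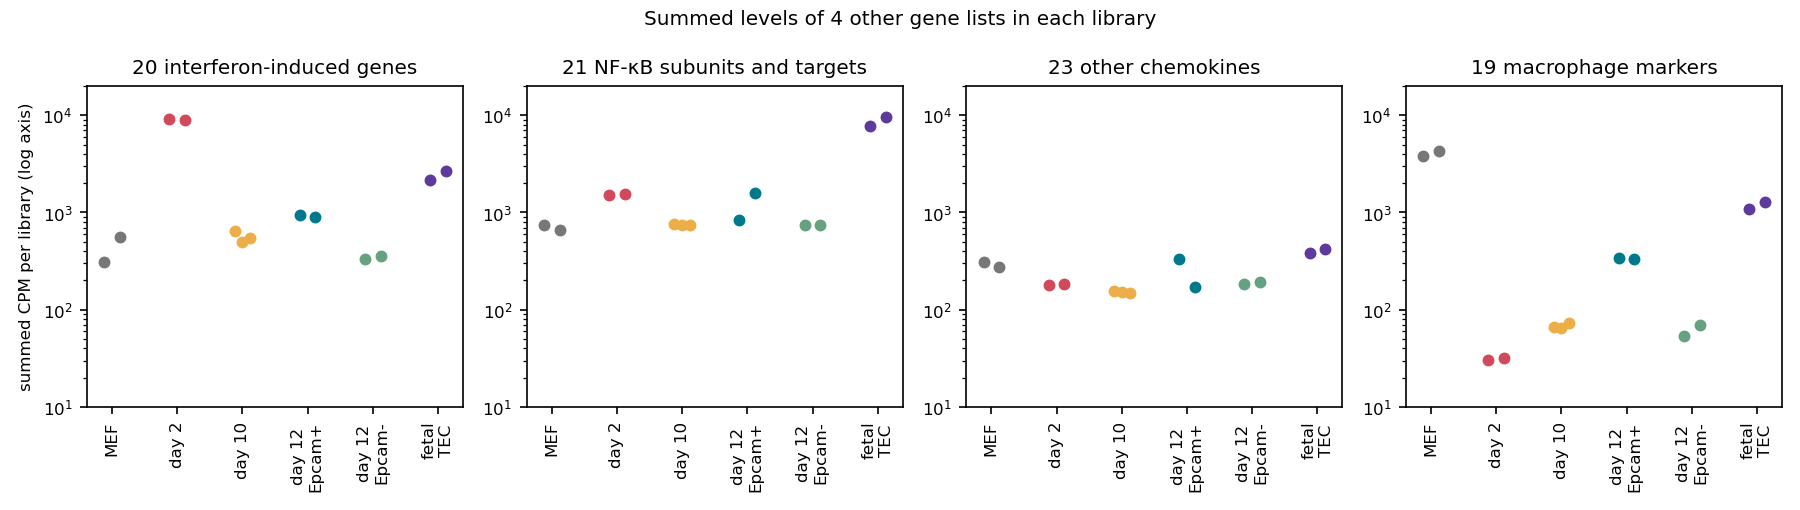
Summed CPM per library, on a log axis, of 20 interferon-induced genes, 21 NF-kB subunits and target genes, 23 other chemokines and 19 macrophage markers, by group. The interferon sum was 9241 and 9010.3 CPM at day 2, against 310 and 554 CPM in MEF, while the macrophage sum was 30.3 and 32.2 CPM at day 2, against 3838 and 4340 CPM in MEF.

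Neighbouring chemokine genes on chromosomes 5 and 11 had group means of both kinds, higher and lower at day 2 than in MEF; those given here were chosen after their values were seen. Beside Ccl2 and Ccl7, Ccl12 had no count at day 2 and averaged 8.50 CPM in MEF, and Ccl9, beside Ccl5, averaged 0.423 CPM at day 2 and 69.0 CPM in MEF. Near Cxcl5, Ppbp averaged 91.0 CPM at day 2 and 40.7 CPM in MEF, while its neighbour Pf4 averaged 0.0195 CPM at day 2 and 29.1 CPM in MEF. Cxcl9, Cxcl10 and Cxcl11, the 3 ligands of Cxcr3, lie in 1 cluster and each had a higher mean at day 2 than in MEF: 8.14 and 1.38 CPM for Cxcl9, 603 and 4.73 CPM for Cxcl10, and 11.6 and 0.0308 CPM for Cxcl11. In fetal TEC these 3 averaged 46.3, 1506 and 26.4 CPM. Any reads shared between chemokine genes of similar sequence could be split by counting, and the sources used here do not say how such reads were assigned.

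**Figure D4:**
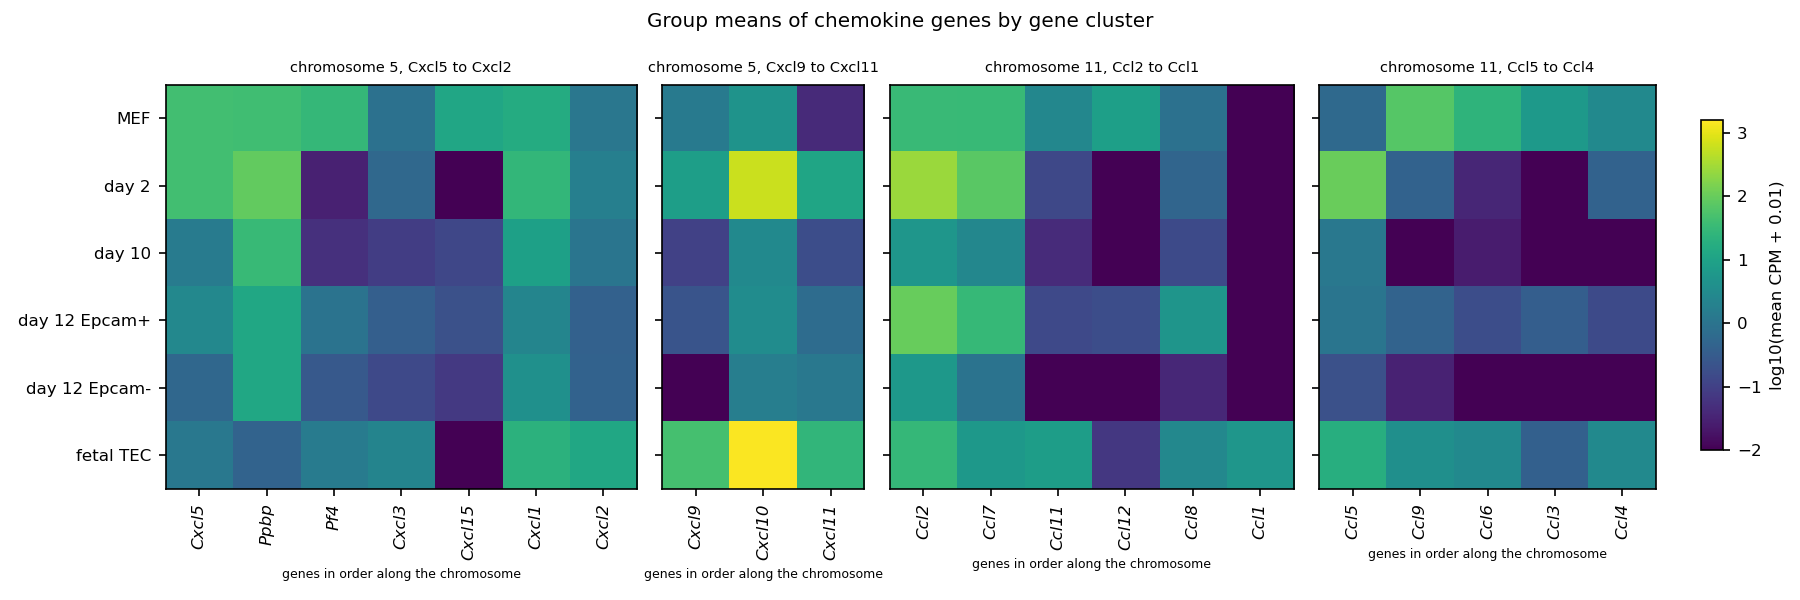
Mean CPM + 0.01 per group, as log10 in colour, of the chemokine genes of 4 clusters on chromosomes 5 and 11. Genes run across in genome order and groups run down the page. The column of Cxcl10 is bright at day 2 (603 CPM) and in fetal TEC (1506 CPM). Those of Ccl9 and Pf4 are bright in MEF (69.0 and 29.1 CPM) and dark at day 2 (0.423 and 0.0195 CPM).

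The members fell into patterns that a correlation over the 13 libraries describes (Pearson r of log2(CPM + 1); libraries of 1 group and its culture are shared, so no p is given). Ccl5 and Irg1 were most alike within the set (r = 0.979), followed by Cxcl10 and Irg1 (0.943), Ccl2 and Ccl7 (0.933) and Ccl5 and Cxcl10 (0.888), and the lowest pair was Ptgs2 and Il1rn (-0.0203). Over all genes with a mean of at least 1 CPM, the gene most like Ccl5 and Irg1 was Cmpk2 (0.991 and 0.980), and that most like Cxcl10 was Gbp5 (0.994). Cars was the gene most like both Ccl2 (0.948) and Ccl7 (0.966). Il6 was most like Ms4a4d (0.992), Ptgs2 most like Edn1 (0.953), Cxcl5 most like Lrrfip1 (0.988), Cxcl1 most like Lpar6 (0.939) and Il1rn most like Arhgef28 (0.964).

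**Figure D5:**
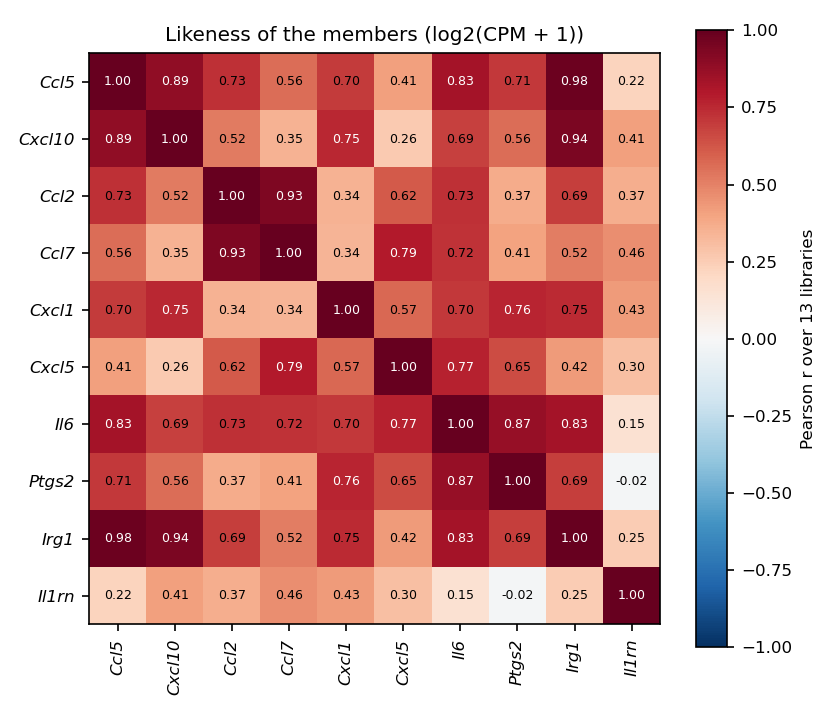
Pearson r between the members' log2(CPM + 1) values over the 13 libraries, as colour. Ccl5, Cxcl10 and Irg1 form a block with r of 0.888 to 0.979, and Ccl2 and Ccl7 a pair at 0.933.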

How the data were processed

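Bulk RNA-seq libraries (13, in 6 groups) were read from a table of counts per gene symbol, whole numbers as deposited by the authors. The submitters' processing notes list FastQC, Trimmomatic, HISAT2, SAMtools, StringTie and DESeq2 with build mm10, without versions or order; strandedness and the handling of multi-mapped reads are not given in the sources used here. Columns named for no Cre were taken as the untreated MEF. Samples were grouped by the labels. Of 24394 symbols, 4044 were at 0 throughout and 17004 passed filterByExpr. All 13 libraries were fitted with 1 mean per group in edgeR 4.0.16 (R 4.3.3; TMM, robust quasi-likelihood F test), and p-values were adjusted by Benjamini-Hochberg over the tested genes of each of 9 comparisons, with calls at 0.05. SE is the log2 change divided by the root of F. Library totals were 35805780 to 86465460; intervals and floors (3 counts) cover counting error only. DESeq2 1.42.0, another scaling, no filter, a replicate block and left-out libraries were alternatives. The fit was also run on simulated counts that gave all libraries the same dispersion. That run cannot speak to the wider spread of the Epcam-positive and fetal TEC libraries. Every member is named; other genes of a list were named from the up to 4 with the smallest p in the comparison, and chemokine neighbours, marker genes and other called genes named outside that rule were chosen after their values were seen. The members and lists were chosen with earlier results of these data known. Positions are mm10 (GENCODE), matched by symbol for 24002 symbols (98.4%).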

Additional observations from a re-analysis of the deposited data

How the results depend on the processing

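Limits: groups of 2 or 3 libraries share a spread estimate (common dispersion 0.296), the Epcam-positive and fetal TEC libraries widen it, and sex and macrophage markers move with MEF. Of 90 member results, 89 kept their direction and side of the threshold with DESeq2 size factors, 90 with no filter and 79 with the DESeq2 Wald test, where 10 more passed. DESeq2 size factors moved the median of all genes to -0.25, against -0.10, for day 10 over fetal TEC, a shift of -0.15, and by at most 0.03 elsewhere. Genes called, in the order day 2 over MEF, day 10 over MEF, day 10 over day 2, Epcam-positive over MEF, Epcam-negative over MEF, Epcam-positive over day 2, Epcam-negative over day 2, Epcam-positive over Epcam-negative, were 938, 2720, 2151, 3455, 2025, 3104, 1745 and 44 as reported (10085 for day 10 over fetal TEC). The DESeq2 Wald test gave 2317, 4311, 3675, 6289, 3770, 5672, 3360 and 1763, and 6 members in the last. With no filter the last count was 24. Without Epcam-positive and fetal TEC libraries, day 2, day 10 and Epcam-negative over MEF gave 6386, 9247 and 8648 genes, and day 10 and Epcam-negative over day 2 gave 8350 and 8109, with 9 members for day 2 and 10 for Epcam-negative over MEF; fewer libraries with a smaller spread enter that fit. Without the 3 libraries in which levels ran against gene length, an alternative chosen after seeing the data, the counts in the first order were 6444, 9238, 8389, 6584, 8675, 6577, 8148 and 1677, with 9, 8, 6, 10 and 7 members for the 4 comparisons over MEF (day 2, day 10, Epcam-positive, Epcam-negative) and Epcam-positive over Epcam-negative.

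Same-numbered replicates did not deviate together in every pair (correlations -0.215 to 0.116) and share only a number. A fit with the replicate block gave 391, 1040, 831, 1036, 915, 1086, 834 and 1 genes, and 3 members each for day 2, day 10 and Epcam-negative over MEF and 0 for Epcam-positive over Epcam-negative; 15 of the 90 member results no longer passed. Without each library in turn, members called were 2 to 8, 3 to 7, 6 to 9, 1 to 10, 3 to 10, 4 to 9, 5 to 10 and 0 to 6 in the first order and 4 to 9 for day 10 over fetal TEC; genes called were 304 to 3859, 1103 to 6793, 608 to 5935, 708 to 10933, 749 to 6054, 515 to 10363, 481 to 5573, 0 to 9673 and 7791 to 12778.

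Signs turned as follows, some of them near 0 and others well away from it, and the cause was not tested. For Epcam-positive over MEF, Ccl7 became 0.03 under DESeq2 size factors and the Wald test and -1.97 to 0.74 without a library. Ccl5, Cxcl10 and Ccl2 became -0.84, 0.34 and -1.36 without the length-skewed libraries, and ranged from -0.83 to 1.55, -2.87 to 0.35 and -1.36 to 2.44 without a library, turning without Epcam-positive replicate 2. Cxcl5 at day 2 over MEF became 0.05 without the length-skewed libraries and -0.41 to 0.53 without a library, and Il1rn at day 10 over day 2 ranged from -0.04 to 0.01. For Epcam-positive over Epcam-negative, Cxcl10, Il6, Ptgs2 and Irg1 ranged from -1.37 to 1.85, 0.00 to 8.26, -1.96 to 1.01 and -2.70 to 4.09, the low end being without Epcam-positive replicate 1; Il6 had 0 counts in Epcam-negative cells, and Irg1 had 5 and 2 counts in these groups. Cxcl5 at day 10 over fetal TEC ranged from -0.34 without fetal TEC replicate 2 to 1.54 without replicate 1.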
